A study of Sus scrofa with 16 samples.

Results

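Cathepsins are proteases that work mainly in the lysosome, the acidic compartment in which cells digest proteins. Most are cysteine proteases of the papain type, CTSD is an aspartic protease, and each is made as an inactive precursor that is carried to the lysosome and cut there into the active enzyme. In the intestinal mucosa they are known from macrophages and epithelial cells, where they degrade engulfed material and help to trim antigens for presentation, and in the liver from hepatocytes and Kupffer cells.

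The family was read at the microarray probes that the scanner files name for a listed member, and the members were chosen by an earlier view of the colonic diet difference in these data. Of the 9 genes listed, 6 had a probe under their name, CTSB with 4, CTSD with 2, CTSF with 1, CTSH with 2, CTSK with 5 and CTSZ with 1. This made 15 probes of the 43603 on the array. CTSC and CTSS had no probe under their names, and CTSL was named only by its older symbol CTSL1, at 10 probes, which were kept apart from the 15. RefSeq now gives the transcript of these 10 probes the symbol CTSV, with CTSL and CTSL1 among its older names. Every array of the 16 measured these 25 probes well above background.

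Barrows were fed a corn and soybean diet that held purified corn starch (CS diet) or, in its place, raw potato starch (RPS diet), a starch that resists digestion in the small intestine. The starch made up 230 g/kg of the growing diet and 280 g/kg of the finishing diet, each fed for 50 d, and tissues were taken at 170 d of age. Mucosa scraped from the proximal colon and liver were measured on 1-colour Agilent porcine arrays. There were 4 pigs per diet and tissue, with 1 array per pig in each tissue. The 4 groups were CS colon, RPS colon, CS liver and RPS liver. The labels do not state which colon and liver arrays came from the same pig.

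Each group lay on 1 slide that was scanned at 1 time, so slide and group cannot be told apart. The median signal was 56.3 to 70.8 on the CS colon arrays, 34.2 to 42.5 on the RPS colon arrays, and 30.6 to 37.9 and 31.1 to 37.9 on the CS and RPS liver arrays. Of all probes, 64.9% to 72.2% were well above background on a colon array and 61.0% to 65.9% on a liver array. On the scale shared by the 16 arrays, the summed signal of 8 hepatocyte markers ranged from 1902130 to 2061930 on liver arrays and from 587 to 1757 on colon arrays. The summed signal of 9 colonic epithelial markers ranged from 230130 to 814151 on colon arrays and from 25391 to 47343 on liver arrays. Both tissues therefore matched their labels. Among the colon arrays, CS replicate 3 and RPS replicate 2 stood apart in cell markers. On the scale of the 8 colon arrays their epithelial sums were 228762 and 323741, against 597044 to 775320 on the others, and their sums of 3 B and plasma cell markers were 10027 and 8542, against 149 to 2036. RPS replicate 4 had 27 outlier spots, against 3 to 9 on the other colon arrays, and the lowest share of probes well above background among them, 64.9% against 67.6% to 72.2%. A scraped mucosa and a piece of liver hold many cell types, so fewer cells of a type and less RNA per cell cannot be told apart in any value given here.

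The probes are 60 bases long and read different stretches of their transcripts. The following sequences, 1 for each gene with a probe that keeps an open reading frame, show which stretch of the enzyme's message was detected. CTSF had no such probe. Capitals mark, in the CTSH and CTSK probes, the codons of the asparagine of the papain-type active site and of the 3 residues that follow it. Of the 15 probes, these were the 2 that held those codons in an open frame.
CTSH A_72_P035971: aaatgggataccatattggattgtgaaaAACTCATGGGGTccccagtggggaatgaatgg
CTSK A_72_P146366: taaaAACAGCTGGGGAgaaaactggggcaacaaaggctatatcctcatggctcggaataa
CTSD A_72_P772656: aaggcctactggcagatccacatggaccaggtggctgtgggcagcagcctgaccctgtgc
CTSB A_72_P550091: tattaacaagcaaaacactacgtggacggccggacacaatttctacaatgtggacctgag
CTSZ A_72_P157891: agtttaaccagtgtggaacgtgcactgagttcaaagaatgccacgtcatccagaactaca
CTSL1 A_72_P577118: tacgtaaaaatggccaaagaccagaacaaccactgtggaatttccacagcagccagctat

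In the colon, all 15 probes of the 6 genes had a lower mean with the RPS diet than with the CS diet. The difference at the reading probe, the brightest probe of a gene over the 16 arrays, was greatest for CTSD and CTSZ, smaller for CTSH and CTSB, and least for CTSF and CTSK. More than 1.5-fold lower were 7 of the 15 probes, against 6.83% of all probes. None of the 15 was more than 1.5-fold higher, against 5.9% of all probes. Because the colonic diet difference was used to choose the members, these values are a description, no test of them is given, and nothing is read from the counts.

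CTSD, the main aspartic protease of the lysosome, read 13.26, 13.37, 13.31 and 13.07 on the log2 scale in CS replicates 1 to 4 at A_72_P178086. In RPS replicates 1 to 4 it read 12.44, 12.67, 12.32 and 11.50. Every RPS array was below every CS array, and RPS replicate 4 was the lowest. The RPS mean was 2.03-fold lower (log2 difference -1.02 ± 0.25, SE, n = 4 per diet). The other CTSD probe, A_72_P772656, whose sequence is given above, read 9.75 to 10.18 with the CS diet and 8.37 to 9.28 with the RPS diet, a difference of -1.04 ± 0.22. Over the 8 colon arrays, the deviations of both probes from their diet means had a Pearson r of 0.97.

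CTSZ, a carboxypeptidase that takes residues from the end of a protein, read 10.30, 10.00, 10.45 and 10.03 in the CS pigs. It read 9.49, 9.83, 9.18 and 8.61 in the RPS pigs. The groups did not overlap, but CS replicate 2 and RPS replicate 2 were only a small step apart. The RPS mean was 1.89-fold lower (-0.92 ± 0.26). Both CTSD probes and the CTSZ probe were the 3 of the 15 at which every RPS array lay below every CS array, against 1.42% of all probes.

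CTSH, an aminopeptidase that also acts inside chains, read 12.13, 12.16, 12.50 and 11.59 with the CS diet at A_72_P035971. With the RPS diet it read 11.21, 12.25, 11.27 and 11.30. RPS replicate 2, which had a low epithelial and a high B cell marker sum, lay among the CS arrays, while the other RPS arrays lay below all of them. Without RPS replicate 2 the difference was -0.84 ± 0.22 and without CS replicate 3, the highest of the CS arrays, -0.46 ± 0.31. With all arrays it was -0.59 ± 0.29 at this probe, or 1.51-fold, and -0.75 ± 0.29 at A_72_P609994. Both probes followed each other over the arrays, with r = 0.99 in the colon.

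CTSB, an abundant cysteine protease with endopeptidase and carboxypeptidase activity, read 15.48, 15.68, 14.99 and 15.32 with the CS diet at its brightest probe, A_72_P077676. It read 15.13, 14.81, 15.03 and 14.19 with the RPS diet. The groups overlapped, since CS replicate 3 lay below RPS replicates 1 and 3. The difference ran from -0.55 to -0.70 over the 4 CTSB probes, and 2 of them, A_72_P562909 with -0.70 ± 0.27 and A_72_P681665 with -0.68 ± 0.25, were past 1.5-fold. At A_72_P077676 it was -0.57 ± 0.24, which is 1.49-fold and just short of the threshold, as CTSH at A_72_P035971 with 1.51-fold was just past it.

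CTSF, a cysteine protease with an unusually long precursor, read 12.46, 12.49, 12.15 and 12.53 with the CS diet and 12.37, 12.23, 12.24 and 11.64 with the RPS diet. The groups overlapped, and the difference was -0.29 ± 0.18. CTSK, a collagen-degrading cysteine protease best known from osteoclasts, differed by -0.17 to -0.32 over its 5 probes, and by -0.25 to -0.41 without RPS replicate 4. At A_72_P604568 it read 11.32 to 11.62 with the CS diet and 10.94 to 11.48 with the RPS diet. The groups overlapped at all 5 CTSK probes.

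CTSL1 stood apart from the other genes in the colon. At A_72_P682327 it read 11.86, 11.54, 10.60 and 11.71 with the CS diet and 11.51, 10.77, 11.36 and 12.09 with the RPS diet. The groups overlapped across most of their range, and the array with the highest value was RPS replicate 4, which was the lowest of the 8 colon arrays for CTSB, CTSD, CTSF and CTSZ. The difference was 0.01 ± 0.36 at this probe and -0.16 to 0.07 over the 10 probes, of which none was past 1.5-fold. CS replicate 3 and RPS replicate 2, which stood apart in cell markers, were the lowest of their diets. Without CS replicate 3 the difference was -0.27 ± 0.31, and without RPS replicate 2 it was 0.23 ± 0.35.

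**Figure D1:**
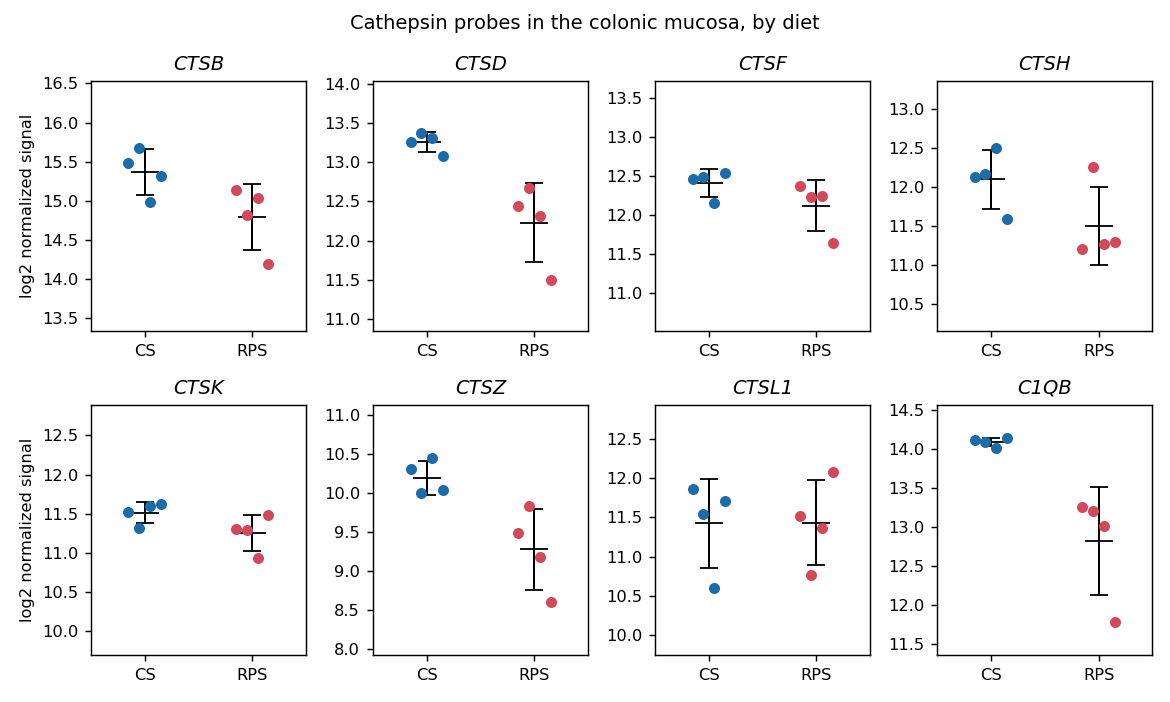
Log2 normalized signal (vertical axis, each panel spanning the same range of log2 units) of the reading probe of 6 cathepsins, CTSL1 and C1QB on the 4 CS (blue) and 4 RPS (red) colon arrays. Points are single pigs, and bars are the mean ± SD. CTSD, CTSZ and C1QB have no overlap between the diets, while CTSL1 overlaps across most of its range around a mean of 11.43 in both.

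RPS replicate 4 and CS replicate 2 carried part of the count. Without RPS replicate 4, 4 of the 15 probes were more than 1.5-fold lower, and without CS replicate 2 also 4. In both cases these were the 2 CTSD probes, CTSZ and CTSH at A_72_P609994. Without RPS replicate 4 the difference was -0.78 ± 0.13 for CTSD at A_72_P178086, -0.69 ± 0.20 for CTSZ, -0.52 ± 0.33 for CTSH at A_72_P035971, -0.38 ± 0.19 for CTSB at A_72_P077676 and -0.13 ± 0.13 for CTSF. The mean correlation of RPS replicate 4 with the other RPS colon arrays was 0.971, where that of CS replicate 3 and RPS replicate 2 with their groups was 0.951 and 0.954 and that of the other colon arrays was up to 0.979. The part of the outlier spots and of the lower share well above background of RPS replicate 4 in these values was not tested. Among all probes past 1.5-fold in the colon, 53.7% were lower with the RPS diet, and 43.4% when the arrays were scaled to their 75th percentile in place of quantile normalization.

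In the liver, no cathepsin probe differed with the diet after adjustment. No probe of the 15 had an adjusted p under 0.05 (limma, Benjamini-Hochberg over all probes, lowest 0.609), against 0.00229% of all probes, which is 1 probe. None passed an unadjusted p under 0.05 together with 1.5-fold, against 3.56% of all probes. None had RPS and CS arrays that did not overlap, against 4.44% of all probes. An unadjusted p under 0.05 alone was reached by 2 of the 15, both of CTSK, against 7.59% of all probes. With 4 arrays per diet, an exact two-sided permutation test cannot give a p below 0.0286.

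The cathepsins with the greatest difference in the colon had means within 0.25 log2 units of each other in the liver. CTSD at A_72_P178086 read 12.56, 12.67, 12.17 and 12.76 with the CS diet and 12.68, 12.50, 12.77 and 12.66 with the RPS diet. The RPS arrays lay within the range of the CS arrays apart from replicate 3, which was above it by little. The difference was 0.11 ± 0.14 (limma, adjusted p = 0.885), and 0.25 ± 0.14 (adjusted p = 0.746) at A_72_P772656. CTSZ read 9.45 to 9.89 with the CS diet and 9.34 to 10.38 with the RPS diet, a difference of 0.13 ± 0.25 (adjusted p = 0.945). CTSB read 16.16 to 16.36 and 16.14 to 16.47 at A_72_P077676, and its 4 probes differed by -0.01 to -0.09. Both CTSH probes differed by -0.01. CTSF differed by -0.15 ± 0.14 (adjusted p = 0.852). The 10 CTSL1 probes differed by -0.09 to 0.16 with a lowest adjusted p of 0.857. The colonic and hepatic differences are set side by side here and their difference was not tested, because the colonic values had been used to choose the members.

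**Figure D2:**
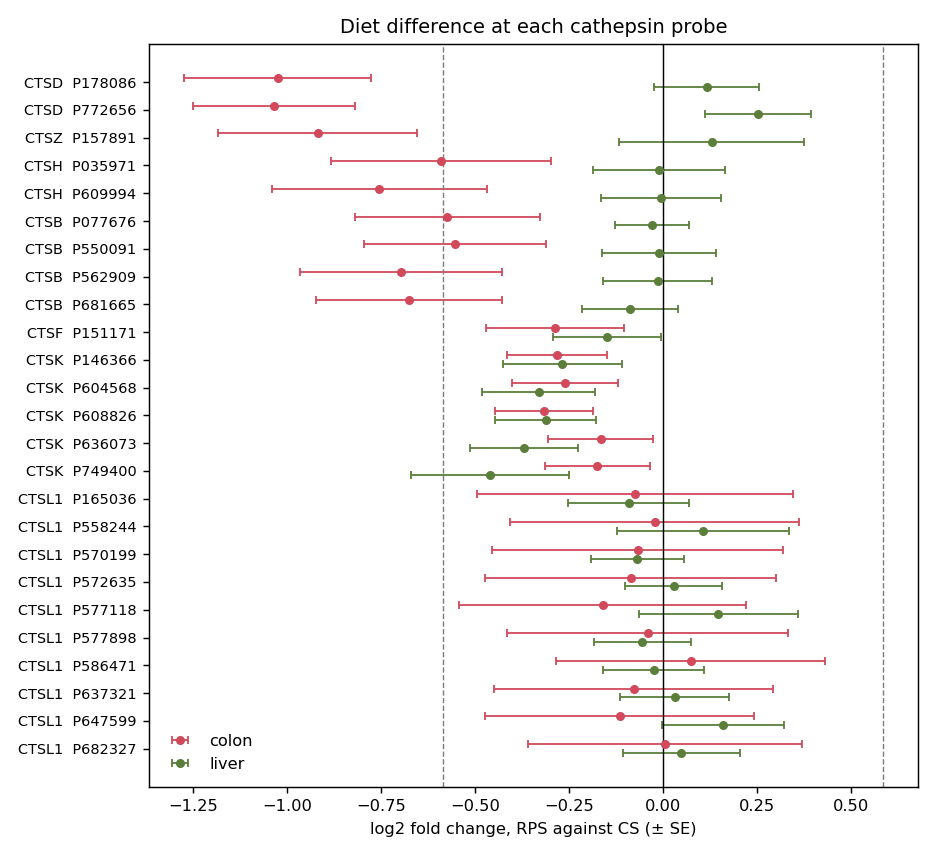
Log2 fold change of RPS against CS (horizontal axis) with its SE at each of the 15 cathepsin probes and the 10 CTSL1 probes, in the colon (red) and the liver (green). Dashed lines mark 1.5-fold. The CTSD, CTSZ, CTSH and CTSB probes lie at -0.55 to -1.04 in the colon and at -0.09 to 0.25 in the liver, and the 5 CTSK probes lie at or below -0.17 in both tissues.

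CTSK was the member with the largest hepatic differences. At A_72_P604568 it read 11.28, 10.71, 11.26 and 11.24 with the CS diet and 10.62, 10.77, 10.90 and 10.88 with the RPS diet. CS replicate 2 lay among the RPS arrays, and the other CS arrays were above all of them. The difference was -0.33 ± 0.15 at this probe and -0.27 to -0.46 over the 5 probes. The lowest unadjusted p was 0.0346, at A_72_P636073 (-0.37 ± 0.14, limma, adjusted p = 0.609, exact two-sided permutation p = 0.0857). At A_72_P608826 it was 0.0497 (-0.31 ± 0.13, adjusted p = 0.658, exact permutation p = 0.114). Without CS replicate 2 of the liver, the 5 probes differed by -0.42 to -0.63. A_72_P749400 then passed the unadjusted p and 1.5-fold together (limma, adjusted p = 0.507), so that 1 of the 15 probes passed. The lowest adjusted p of a CTSK probe was then 0.419.

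Some cell markers also had a lower group mean with the RPS diet in the liver, where 51.6% of the 6941 named genes did. Of 3 fibroblast and matrix markers measured of 6 listed, all 3 had a lower mean, with a median of -0.64 and LUM at -0.04. None of them passed the unadjusted p and 1.5-fold together. Their summed signal was 2458 to 4567 with the CS diet and 1344 to 3505 with the RPS diet on the scale of the 16 arrays, so the groups overlapped. The sum was 4567, 3689, 4362 and 2458 in CS replicates 1 to 4, and 2884, 2431, 1344 and 3505 in RPS replicates 1 to 4. All 4 endothelial markers also had a lower mean with the RPS diet in the liver, with a median of -0.32, and none passed both thresholds. Their summed signal was 8976 to 9564 with the CS diet, with CS replicate 2 at 9353, and 7063 to 8769 with the RPS diet, without overlap. All 7 macrophage markers had a lower mean too, with a median of -0.19. The part of these cells in the CTSK values was not tested.

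**Figure D3:**
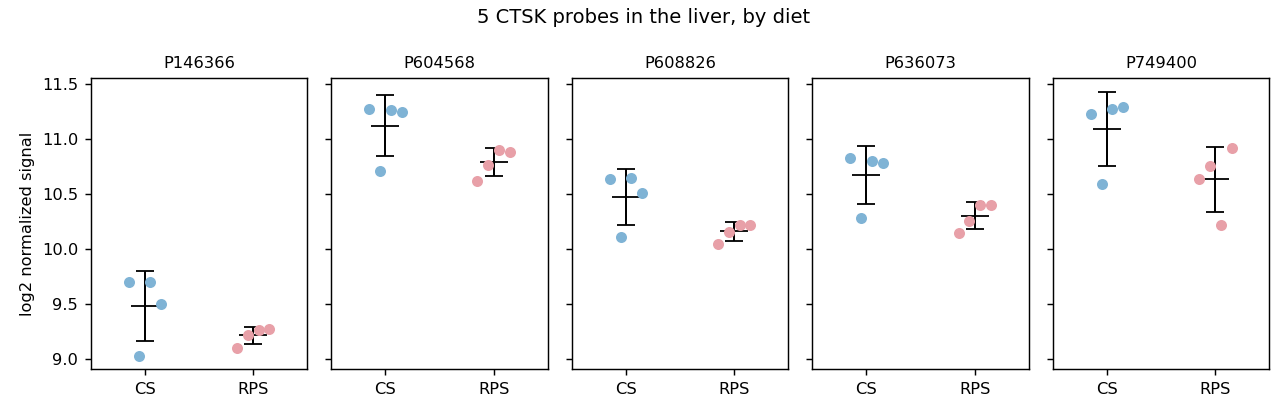
Log2 normalized signal (vertical axis) of the 5 CTSK probes on the 4 CS (light blue) and 4 RPS (pink) liver arrays, with points for single pigs and bars for the mean ± SD. At each probe 3 CS arrays lie above the RPS arrays and CS replicate 2 lies lower, at 10.71 for A_72_P604568.

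Between the tissues, 5 of the 15 probes were lower in the colon than in the liver at an adjusted p under 0.05, against 24% of all probes, and none was higher, against 28.9% of all probes. The 5 were the 4 CTSB probes and the CTSF probe. The 16 arrays were normalized together for this comparison, and the mean of the 2 colon groups was set against the mean of the 2 liver groups. The fit did not pair colon and liver arrays, since the labels do not state which came from the same pig.

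CTSF was 3.01-fold lower in the colon (log2 difference -1.59 ± 0.12, limma, adjusted p = 6.86e-08). It read 11.53 to 12.49 on the colon arrays and 13.42 to 13.99 on the liver arrays, with no overlap. CTSB was lower by -1.12 ± 0.14 at A_72_P077676 (2.18-fold, adjusted p = 8.09e-06), by -1.33 ± 0.15 at A_72_P681665, by -1.89 ± 0.15 at A_72_P550091 and by -1.91 ± 0.16 at A_72_P562909 (3.76-fold, adjusted p = 1.51e-07). The 4 probes thus had the same direction and gave unequal sizes, with the smallest difference at the brightest probe. With the arrays scaled to their 75th percentile, the differences were -1.61 ± 0.15 at A_72_P077676, -1.75 at A_72_P681665, -1.93 at A_72_P550091 and -2.13 at A_72_P562909. The sizes thus depended on the normalization. No spot on any array was marked as saturated, and the signal of A_72_P077676 reached 83787, where the highest signal of any spot was 726030. The cause of the unequal sizes was not tested.

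The 10 CTSL1 probes had the largest tissue difference, 12.5-fold to 21.9-fold lower in the colon, with adjusted p at or below 2.22e-09 at every probe. At A_72_P682327 the means were 11.30 ± 0.59 in CS colon, 11.31 ± 0.57 in RPS colon, 15.64 ± 0.30 in CS liver and 15.69 ± 0.13 in RPS liver (SD, n = 4 each). The colon arrays spread over more than 1 log2 unit within each diet, with CS replicate 3 and RPS replicate 2 the lowest, and the tissues did not overlap.

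With all arrays, CTSD, CTSZ, CTSH and CTSK did not pass the test between tissues. CTSD differed by 0.07 ± 0.15 at A_72_P178086 (adjusted p = 0.737) and by -0.26 ± 0.13 at A_72_P772656 (adjusted p = 0.117). This mean difference joined opposite signs in the diets. At A_72_P178086 CTSD was higher in colon than in liver by 0.67 ± 0.22 with the CS diet and lower by -0.53 ± 0.22 with the RPS diet. The order of the 4 groups was CS colon at 13.25 ± 0.13, RPS liver at 12.69 ± 0.11, CS liver at 12.58 ± 0.24 and RPS colon at 12.16 ± 0.55, in which both liver groups and, by its wide spread, RPS colon overlapped with their neighbours. When the arrays were scaled to their 75th percentile, the tissue difference at A_72_P178086 was -0.26 ± 0.15 in place of 0.07.

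CTSZ followed the same order as CTSD in part, with CS colon at 10.03 ± 0.22, RPS liver at 9.97 ± 0.49, CS liver at 9.84 ± 0.18 and RPS colon at 9.09 ± 0.53. The first 3 groups differed by less than their spread. The difference between tissues was -0.35 ± 0.19 (adjusted p = 0.139), made of 0.19 ± 0.27 with the CS diet and -0.88 ± 0.27 with the RPS diet. CTSH was at 12.01 ± 0.40 in CS colon and at 11.38 to 11.41 in the other groups. CTSK at A_72_P604568 had means of 10.94 to 11.39, and its 5 probes differed between tissues by 0.08 to 0.29 with a lowest adjusted p of 0.0754, at A_72_P749400. This probe passed, higher in the colon, without RPS replicate 4 of the liver (0.34 ± 0.13, limma, adjusted p = 0.0489) and without RPS replicate 3 of the colon (0.34 ± 0.13, adjusted p = 0.0434).

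**Figure D4:**
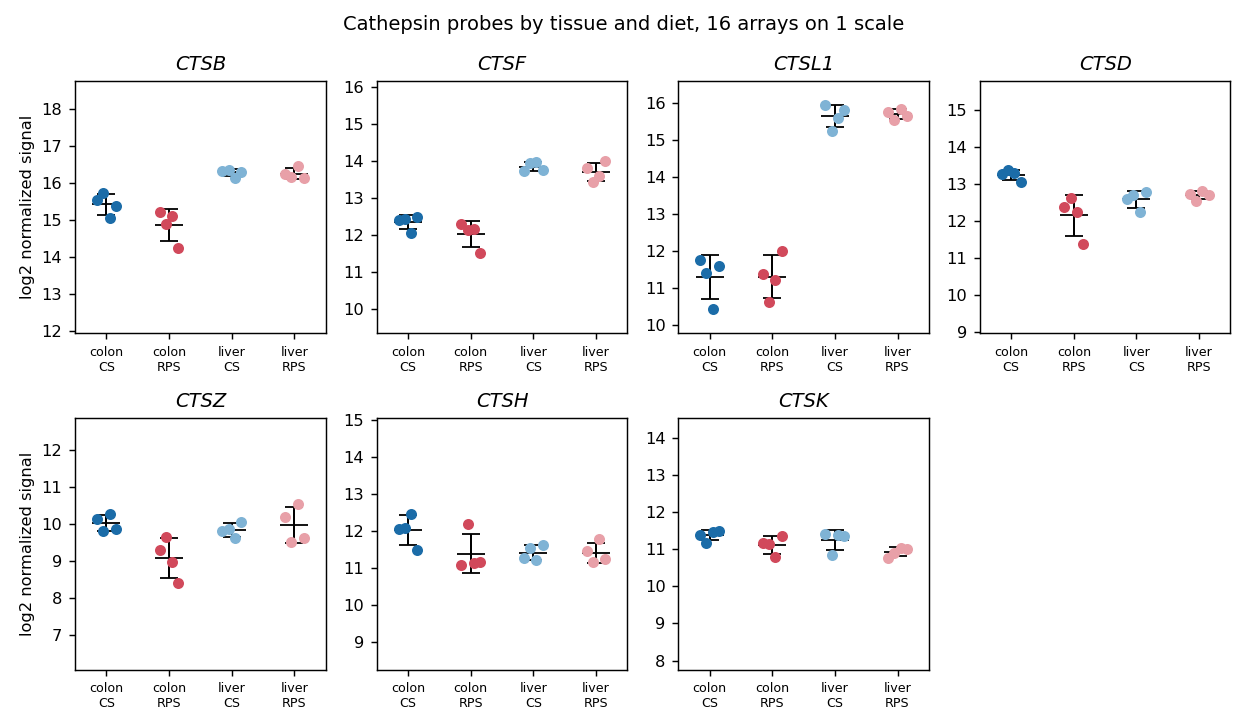
Log2 normalized signal (vertical axis, same span of log2 units in each panel) of the reading probe of each gene in CS colon, RPS colon, CS liver and RPS liver, with all 16 arrays on 1 scale. Points are single pigs and bars the mean ± SD. CTSB, CTSF and CTSL1 are higher in all liver arrays than in all colon arrays, while CTSD and CTSZ in the liver lie between the colon groups or with CS colon.

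C1QA and C1QB, chains of complement C1q that macrophages make in quantity, were read as a macrophage reference. In the colon C1QA read 13.69, 13.92, 13.34 and 13.56 with the CS diet and 13.27, 13.07, 12.73 and 11.92 with the RPS diet, a difference of -0.88 ± 0.30. C1QB read 14.11, 14.09, 14.01 and 14.13 with the CS diet and 13.25, 13.21, 13.02 and 11.79 with the RPS diet, a difference of -1.27 ± 0.32. The diets did not overlap for either gene, and RPS replicate 4 was again the lowest, so their relation to the cathepsins was taken on deviations from the diet means.

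Over the deviations of both diets together, CTSF, CTSB and CTSD had a Pearson r of 0.80 to 0.93 with the C1q genes. CTSH, CTSK and CTSL1 had 0.21 or less. The sign of r was not the same in both diets for CTSZ, CTSH, CTSL1 and, with C1QB, CTSD. None of the 14 relations had an adjusted p under 0.05 (exact permutation within diets over 576 orders, two-sided, Benjamini-Hochberg over the 14). CTSF had Pearson r = 0.91 with C1QA (exact p = 0.0174, adjusted p = 0.081) and 0.90 with C1QB (exact p = 0.0139, adjusted p = 0.081), with Spearman rho of 0.62 and 0.88. CTSB had r = 0.90 with C1QA (exact p = 0.0139, adjusted p = 0.081, rho = 0.83) and 0.80 with C1QB (exact p = 0.0625, adjusted p = 0.175, rho = 0.64). CTSD had r = 0.88 with C1QA (exact p = 0.0556, adjusted p = 0.175, rho = 0.86) and 0.93 with C1QB (exact p = 0.101, adjusted p = 0.201, rho = 0.69). CTSZ had r = 0.68 and 0.81, and CTSH 0.17 and 0.21. CTSK, read here at A_72_P749400, its brightest probe in the colon, had -0.45 with both, and CTSL1 had -0.29 and -0.51. With each diet taken alone, CTSB and CTSF had a positive r with both genes in either diet. CTSD had 0.34 with C1QA in the CS pigs and 0.94 in the RPS pigs, and -0.61 and 0.98 with C1QB. CTSZ had -0.72 and 0.91, and -0.70 and 0.91. CTSL1 had 0.67 and -0.73, and 0.95 and -0.81. CTSH had -0.22 and 0.29, and -0.90 and 0.32. CTSK was negative throughout. The r in a single diet was not tested.

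Most values of r over both diets together were lower without the 2 arrays whose level lay farthest from the median of the reference. These were RPS replicate 4 and CS replicate 2 for C1QA, and RPS replicates 3 and 4 for C1QB. Their distance was taken on the level, which holds the diet difference, and not on the deviations. In C1QB, RPS replicate 3 deviated from its diet mean by only 0.20. Without these arrays CTSD had r = 0.23 with C1QA and -0.64 with C1QB. CTSZ then had 0.28 and -0.73, CTSB 0.53 and 0.67, and CTSF 0.65 and 0.96 (n = 6 arrays, exact permutation, adjusted p = 0.292 or higher). CTSL1 had 0.47 and 0.94. The r of CTSZ, and of CTSD on this scale, thus fell with C1QA and turned negative with C1QB. The arrays left for C1QB varied little within their diets. The CS arrays deviated by -0.07 to 0.05, and RPS replicates 1 and 2 by 0.43 and 0.39. Values of r on them therefore rest on a narrow range of C1QB, and no conclusion is drawn from them. With the arrays scaled to their 75th percentile, 6 of the 14 relations had an adjusted p under 0.05, those of CTSB, CTSD and CTSF with C1QA and C1QB, at 0.0243 to 0.0365. On that scale the 2 arrays farthest for C1QA were not the same pair as the 2 named above. The values with C1QA therefore differ in the arrays left out as well as in the scaling. Without the 2 farthest arrays of that scale, CTSD had r = 0.71 with C1QA and 0.53 with C1QB, and CTSZ had -0.60 and -0.55. CTSB had 0.997 and 0.95, CTSF 0.89 and 0.95, CTSL1 0.81 and 0.94, CTSH -0.31 and -0.47, and CTSK -0.01 and 0.26. None of the 14 then had an adjusted p under 0.05 (exact permutation, lowest 0.146). With 6 arrays few orders exist, and the lowest exact p was 0.0208. An adjusted p under 0.05 could thus hardly be reached on either scale, and nothing is read from its absence.

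**Figure D5:**
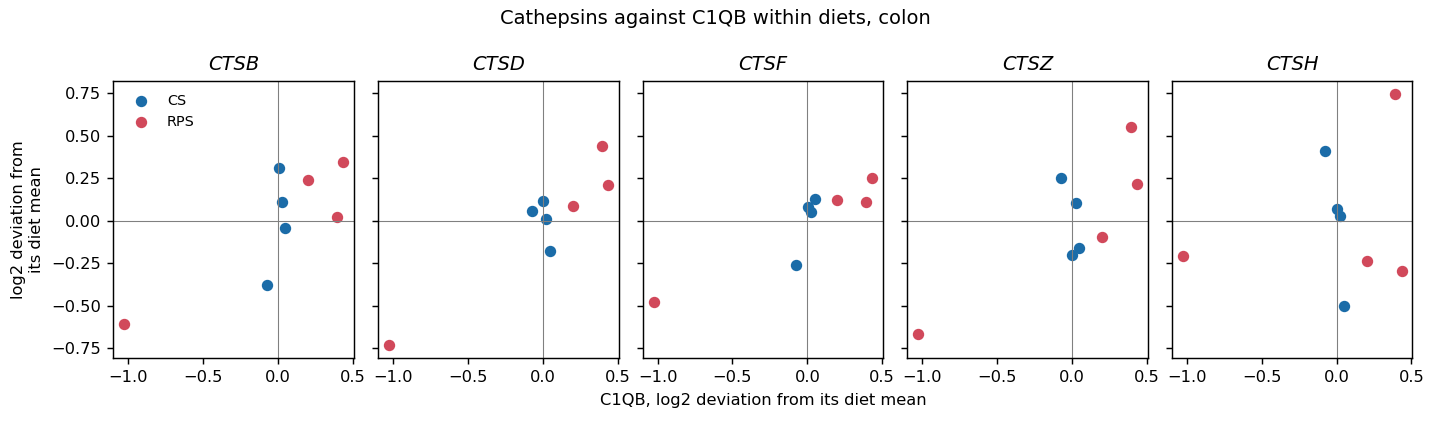
Log2 deviation of CTSB, CTSD, CTSF, CTSZ and CTSH (vertical axis) and of C1QB (horizontal axis) from their diet means on the 4 CS (blue) and 4 RPS (red) colon arrays. RPS replicate 4 is the point at the far left of each panel. The CS arrays span a narrow range of C1QB, and CTSH shows no common direction with it (r = 0.21).

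The macrophage markers did not all have the C1q difference. Of 11 listed, 7 were measured, 6 had a lower mean with the RPS diet in the colon and 3 were more than 1.5-fold lower, C1QA, C1QB and C1QC (-1.30 ± 0.36). CD163, a scavenger receptor, differed by -0.30 ± 0.23, AIF1 by -0.42 ± 0.29, MRC1, the mannose receptor, by -0.06 ± 0.39 and CD14 by 0.00 ± 0.36. The summed signal of the 7 was 44704 to 50302 on the CS arrays and 16030 to 34550 on the RPS arrays, without overlap. It is a sum of linear signal, and C1QA and C1QB made up most of it on the CS arrays. The C1q difference therefore weighs heavily in it. Each of the 7 was well above background on every array. The summed signal of 3 smooth muscle markers did not overlap either, with 26972 to 29357 and 17781 to 23014, while that of T cells, B and plasma cells, fibroblasts, endothelium, neutrophils, goblet cells and colonic epithelium overlapped between the diets. More than 1.5-fold lower with the RPS diet were 3 of 3 B and plasma cell markers, 2 of 5 T cell markers and 1 of 3 fibroblast markers. Of the neutrophil markers, MPO was not well above background on any colon array, so no count is given for them. S100A8 was higher with the RPS diet by 1.63 ± 0.95, S100A9 by 0.81 ± 0.71 and S100A12 by 0.39 ± 0.61. S100A8 was well above background on 3 CS and 4 RPS colon arrays, S100A9 on 2 and 3, and S100A12 on 4 and 4. The part of any of these cell types in the cathepsin differences was not tested. In the liver the 7 macrophage markers had a median diet difference of -0.19, and none passed the unadjusted p and 1.5-fold together.

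Within diets, the cathepsins varied together to unequal degrees over the 8 colon arrays (Pearson r of deviations from the diet means, a description over arrays that share RPS replicate 4). CTSB and CTSF had r = 0.93, CTSD and CTSZ 0.89, CTSD and CTSF 0.74, and CTSB and CTSD 0.70. CTSH had 0.65 with CTSZ and 0.53 with CTSD. CTSL1 had -0.76 with CTSZ, -0.75 with CTSH and -0.68 with CTSD. CTSK had -0.68 with CTSB.

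The genes most like CTSD over the 8 colon arrays, by Pearson r with both diets together among 11242 probes of named genes, were LIPA (lysosomal acid lipase, r = 0.99), C1QB (0.98), C1QC (0.97), CD81 (a tetraspanin, 0.97) and PGA5 (pepsinogen A, named PGA in the files, 0.96). Most like CTSB were FCGR3A (an Fc receptor of macrophages and natural killer cells, r = 0.98), SDCBP (syntenin, 0.96), SNRK (a kinase, 0.96), CYP4A21 (a cytochrome P450, 0.96) and COL6A2 (a chain of collagen VI, 0.95). All 10 had a lower mean with the RPS diet, from -0.21 to -1.30, and the points share that difference and the brightness of the CS slide. PGA5 and CTSD are both aspartic proteases, and whether the PGA5 probe also detected the CTSD message was not tested. For CTSD and C1QB, whose diets did not overlap, r over both diets holds the gap between the diets, and the values within diets are those given above.

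Other genes of the lysosome, and some related to cathepsins without being lysosomal, were read at 46 genes on 7 lists, 1 probe per gene. In the colon 8 of the 46 were past 1.5-fold, where 6.83% of 6941 named genes were lower and 4.6% higher. Of the other cathepsins and aspartic proteases, 2 of 8 were measured apart from CTSV. That listed symbol is the one RefSeq now gives the transcript of the CTSL1 probes, which were read separately. PGA5 was lower by -0.99 ± 0.29, and CTSA, the carboxypeptidase that protects lysosomal galactosidase, differed by 0.01 ± 0.21. The PGA5 value was close to the -1.02 and -1.04 of the CTSD probes. In the liver PGA5 differed by 0.20, against 0.11 and 0.25 for CTSD. Between the tissues it differed by -0.15, against 0.07 and -0.26. Whether the PGA5 probe also detected the CTSD message was not tested, so PGA5 may not be a gene separate from CTSD in the count of 8. Of the cathepsin inhibitors, 2 of 8 were measured, CST3 (cystatin C) with -0.56 ± 0.30 and CSTB (stefin B) with -0.14 ± 0.23. The 4 measured genes of delivery and maturation differed by -0.29 to 0.05, the 9 of the lysosomal membrane by -0.26 to 0.06, and the 4 of lysosomal transcription by -0.36 to 0.06, with none past 1.5-fold.

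Of 18 other lysosomal hydrolases measured in the colon, 14 had a lower mean with the RPS diet, with a median of -0.17, against a median of 0.01 and 47.8% lower over the named genes. DNASE2, the lysosomal DNase, differed by -0.89 ± 0.45 and LIPA by -0.68 ± 0.27, both more than 1.5-fold lower, while LYZ, lysozyme, was higher by 0.64 ± 0.49. Of 7 antigen processing partners, all 7 had a lower mean, with a median of -0.62, and 4 were past 1.5-fold: CD74, the invariant chain that cathepsins cut, with -0.96 ± 0.64, SLA-DRA with -0.73 ± 0.44, SLA-DQB1 with -0.62 ± 0.46 and IFI30, the lysosomal thiol reductase, with -0.62 ± 0.48. Without RPS replicate 4, none of the 7 was past 1.5-fold, 6 had a lower mean and the median was -0.31. The SLA genes are class II histocompatibility genes with closely similar copies, which their probes may not separate. Without RPS replicate 4, 2 of the 46 genes were past 1.5-fold, and without RPS replicate 2, 15 were. These colonic values are, like those of the cathepsins, a description.

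In the liver, 1 of the 46 genes passed the unadjusted p and 1.5-fold together, where 1.69% of the named genes passed lower and 1.64% higher. This was HYAL1, a lysosomal hyaluronidase, with a mean 1.90-fold higher with the RPS diet (0.93 ± 0.29, limma, unadjusted p = 0.014, adjusted p = 0.519). No median of the 7 lists in the liver was outside -0.26 to 0.10.

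Between the tissues, 35 of the 46 genes had an adjusted p under 0.05, where 26.6% of the named genes were lower in the colon and 36.7% higher. The inhibitors were both higher in the colon, CSTB 4.62-fold (2.21 ± 0.13, limma, adjusted p = 3.73e-09) and CST3 2.30-fold (1.20 ± 0.19, adjusted p = 7.93e-05). CTSA was higher in the colon by 0.73 ± 0.13 (adjusted p = 0.000254). Of the genes of delivery and maturation, M6PR, a mannose 6-phosphate receptor that carries cathepsins to the lysosome, was 2.19-fold higher in the colon (1.13 ± 0.09, adjusted p = 6.25e-08). GRN, progranulin, and PSAP, prosaposin, were higher by 0.55 ± 0.10 and 0.33 ± 0.11. IGF2R, the other mannose 6-phosphate receptor, was lower by -0.33 ± 0.08 (adjusted p = 0.00271).

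The 9 lysosomal membrane genes went both ways, with 4 lower and 2 higher in the colon at an adjusted p under 0.05. LAMP2 was 5.01-fold lower in the colon, SCARB2, the carrier of glucocerebrosidase, 2.08-fold lower and LAMP1 1.65-fold lower, whereas ATP6V1B2, a subunit of the proton pump, was 1.61-fold higher. Of the 18 hydrolases, 6 were lower and 9 higher. The largest differences among them were 167-fold higher for LYZ, 11.2-fold higher for HYAL1, 4.87-fold higher for ACP5, an acid phosphatase, and 2.77-fold lower for GAA, the acid glucosidase. All 7 antigen processing partners were higher in the colon, from 3.34-fold to 5.91-fold, with SLA-DQB1, SLA-DQA1, IFI30 and SLA-DRA as the leading genes. Of the 4 genes of lysosomal transcription, TFEB, TFE3, MITF and MCOLN1, none passed the test, and the lowest adjusted p was 0.0598.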

How the data were processed

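Colonic mucosa and liver, each from 4 pigs per diet, were measured on 16 arrays. The authors scanned each array and deposited the intensity of each spot as written by Agilent Feature Extraction 10.7 (per the submitters' processing notes), with background subtracted and not normalized between arrays. They also deposited a table of quantile normalized log2 values, used as an alternative. Depth is given by the share of probes well above background, and the number of arrays limits the precision.

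Outlier spots were set to missing, control spots left out, and log2 signals quantile normalized (8 arrays of a tissue for the diet, 16 for the tissues) and averaged per probe. Fits used limma 3.58.1 (lmFit, eBayes) in R 4.3.3, and tables were handled by the package data.table, version 1.17.8. Adjustment ran over 43603 probes, and the fold threshold was 1.5, that of the study. Sequences were translated with Biostrings 2.70.1, and figures drawn with matplotlib 3.10.9. Symbols came from the files and from RefSeq's pig table (10378 probes matched its symbol, 462 a former symbol, 2200 a LOC identifier and 1005 an accession, while 228 kept the file's name and 29330 had none). The procedure was tested on simulated data.

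The members and gene lists were chosen with earlier results of these data known. The genes named were all member probes, C1QA, C1QB, every gene past a call on the lists of other cathepsins, inhibitors and delivery, up to 4 with the largest change on each other list, and the 5 most like CTSD and CTSB. Members of those short lists that passed no call and the lysosomal transcription genes were named after their values were seen. So were the neutrophil markers and the other macrophage markers. Alternatives were scaling to the 75th percentile, normexp background correction (offset 50), the authors' log2 values, outlier spots kept, dim probes left out, a replicate block, all 16 arrays together, the mean over a gene's probes, the t-test of the methods and each array left out. The samples were grouped by the titles in the labels. Nothing in the labels says that replicate numbers pair pigs. Same-numbered colon and liver arrays deviated from their group means with r of 0.16 to 0.33 with the CS diet and -0.08 to 0.07 with the RPS diet. Between the diets, which were fed to different pigs, r of same-numbered colon arrays ran from -0.51 to 0.55.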

Additional observations from a re-analysis of the deposited data

Results flagged for a closer look

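In 2 of 28 groups of 4 arrays at the reading probes, the outermost array lay farther from the next than Dixon's test allows, where chance gives about 1 in 20. CTSH at A_72_P035971 read 12.25 in RPS colon replicate 2, above the other RPS colon arrays. CTSK at A_72_P604568 read 10.71 in CS liver replicate 2, below the other CS liver arrays. The cause of either was not tested.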

How the results depend on the processing

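The colonic count of probes more than 1.5-fold lower was 6 to 7 of 15 under the alternatives that kept all arrays and 4 to 9 with an array left out, and none was more than 1.5-fold higher. CTSD and CTSZ stayed past 1.5-fold under all 16 settings, CTSH at A_72_P035971 under 9 and CTSB at A_72_P077676 under 4. The other CTSH probe, A_72_P609994, stayed past it under all 16. CTSB did so under 14 at A_72_P562909 and at A_72_P681665, and under 4 at A_72_P550091. The hepatic count past both thresholds was 0 to 1 with an array left out and 0 otherwise, the methods' t-test included. The count higher in colon than liver was 0 to 1 with an array left out (CTSK at A_72_P749400), and the count lower was 5 throughout. With the replicate number as a block that count higher in colon was 1, again CTSK at A_72_P749400 (limma, adjusted p = 0.0149). The block left the colonic count at 7 and the hepatic counts at 0. Every CS colon array correlated best with the CS liver array of its own number, but no RPS colon array with its own, so the numbers were not taken as pairs. Scaling to the 75th percentile gave 6 relations with the C1q genes in place of 0. The sign of small differences turned as follows. With an array left out, the hepatic log2 difference ran from -0.10 to 0.00899 for CTSB, from -0.00741 to 0.19 for CTSD, from -0.14 to 0.0781 for CTSH, from -0.0795 to 0.14 for CTSL1 and from -0.0652 to 0.28 for CTSZ. For CTSH it was 0.0289 with 75th percentile scaling and 0.0169 with normexp. Between tissues CTSD ran from -0.0126 to 0.20 with an array left out and was -0.26 with 75th percentile scaling. Of the 46 genes on the lysosome lists, 8 were called in the colon, 5 with 75th percentile scaling, 4 with normexp and 2 to 15 with an array left out. In the liver 1 was called, 0 with normexp or all 16 arrays together and 1 to 3 with an array left out. The cause of these changes was not tested.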
